A study of Mus musculus with 4 samples.

Results

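The mouse miRNAs miR-28a, miR-151 and miR-708 are related by sequence, and the 6 mature strands of their 3 hairpins are described here in MIN6 cells and in exosomes from those cells. The members were taken by name from the table of mature miRNAs: mmu-miR-28a-5p, mmu-miR-28a-3p, mmu-miR-151-5p, mmu-miR-151-3p, mmu-miR-708-5p and mmu-miR-708-3p (written below without the species prefix), which are 6 of the 1915 mature miRNAs listed. MIN6 is a mouse insulinoma cell line that serves as a model of the pancreatic beta cell, and no treatment or genetic change was labelled in any sample. The 2 cell libraries and the 2 exosome libraries shared 1 line and 1 culture medium (DMEM with 15% FBS from which exosomes had been removed), and the exosomes were pelleted from conditioned medium by ultracentrifugation. The SMARTer smRNA-Seq Kit, which polyadenylates small RNA before it makes cDNA, was used for the libraries, and they were read on a HiSeq2500. The labels number the samples 1 and 2 without saying that they came from separate cultures, so p-values measure the spread between these libraries, which may be technical.

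As background, a miRNA hairpin is cut to a short duplex, and either strand, named 5p or 3p for its arm, can be loaded into an Argonaute protein, where bases 2 to 8 (the seed) choose the target mRNAs. The hairpins of this family are known to derive from LINE2 repeats, in which inverted copies fold back on each other, and each lies within a protein-coding gene. The gene of miR-708, Tenm4 (also called Odz4), encodes a teneurin and is transcribed with the miRNA under control of CHOP, a transcription factor of endoplasmic reticulum (ER) stress, and miR-708 has been described in stressed beta cells. The gene of miR-151, Ptk2, encodes focal adhesion kinase, and that of miR-28a, Lpp, encodes a protein of focal adhesions.

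The mature sequences are shown because they define the family and because some of them share enough bases to bear on the counting. They were read from the deposited tables, and the strands of miR-28a and miR-708 were also found, with identical letters, in RefSeq's miRNA table (GRCm38.p6). Each is written 5′ to 3′ with the seed in capitals.
miR-28a-5p: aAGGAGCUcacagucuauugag
miR-708-5p: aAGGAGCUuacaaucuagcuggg
miR-151-5p: uCGAGGAGcucacagucuagu
miR-28a-3p: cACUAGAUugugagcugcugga
miR-708-3p: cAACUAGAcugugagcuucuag
miR-151-3p: cUAGACUGaggcuccuugagg
miR-28c: aGGAGCUCacagucuauuga

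The 5p strands of miR-28a and miR-708 had the same seed, AGGAGCU, and the other 4 strands had a seed of their own. Among the 1461 listed mature sequences that were compared, no other miRNA had the seed of a member. The 5p strand of miR-151 held the run AGGAGCUCACAGUCUA in common with miR-28a-5p over 16 bases, starting at base 4 of miR-151-5p and at base 2 of miR-28a-5p, so that the seeds of these strands were offset. The hexamer GGAGCU, searched as written, occurred in all 3 of the 5p strands and in 18 of the 1461 sequences (1.23%). The pentamer CUAGA occurred in all 3 of the 3p strands and in 14 of the 1461 (0.958%). The 3p strands of miR-151 and miR-708 shared the 8 bases CUAGACUG, which start at base 1 of miR-151-3p and at base 4 of miR-708-3p.

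The hairpins show where the strands lie, with both mature arms in capitals.
mir-28a: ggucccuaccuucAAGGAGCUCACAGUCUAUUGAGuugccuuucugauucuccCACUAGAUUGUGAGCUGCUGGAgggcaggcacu
mir-151: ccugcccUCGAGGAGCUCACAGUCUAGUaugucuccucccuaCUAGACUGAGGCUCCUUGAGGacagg
mir-708: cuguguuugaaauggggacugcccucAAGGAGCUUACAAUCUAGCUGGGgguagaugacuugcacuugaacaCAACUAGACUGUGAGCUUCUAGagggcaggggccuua

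In the GRCm38 build (GENCODE vM21), the gene Mir28a lies on the plus strand of chromosome 16 from 24827855 to 24827940, in an intron of Lpp. Mir151 lies on the minus strand of chromosome 15 from 73254815 to 73254882, in an intron of Ptk2, and within an intron of 1700085D07Rik, an antisense gene on the opposite strand. Mir708 lies on the plus strand of chromosome 7 from 96249424 to 96249532, in an intron of Tenm4. All 3 hairpins lie on the same strand as their protein-coding host.

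Mature miRNAs received 2564068 to 2930217 counts per cell library but 31409 to 47447 per exosome library. The means differed 69.7-fold, which limits the precision of every exosome value. A count of 3, used as the detection floor, was worth 1.02 to 1.17 RPM (the unit deposited beside the counts, in which every library is scaled to the same sum) in cells and 63.2 to 95.5 RPM in exosomes, and intervals and floors cover counting error only. The main scale is instead normalized CPM, the same after TMM normalization of edgeR, which rescales the libraries on the assumption that most miRNAs are level. Its factors were 0.612 to 0.660 in cells and 1.38 to 1.80 in exosomes, so the scales differ in what they call unchanged. Both are shares of a library and not amounts per cell or per vesicle. The 6 beta-cell markers (the strands of miR-375 and miR-7) were present in every library but summed to 53376 and 54613 RPM in cells and to 25692 and 11430 RPM in exosomes. Among them, miR-375-3p overlapped in RPM, at 9113 and 9881 in cells and 10686 and 7068 in exosomes. The exosome values of the other strands of that list lay below both cell values in RPM. The 15 markers of other cell types (erythroid, myeloid, liver, mesenchymal and muscle) summed to 31.6 to 36.9 RPM in cells and to 5508 to 11044 RPM in exosomes, with the erythroid miR-451a at 0 counts in both cell libraries and 33 and 2 counts in the exosomes and the muscle miRNAs miR-133a-3p and miR-206-3p at 0 counts in all 4. Another muscle marker, miR-1a-3p, had 47 and 29 counts in cells and 3 and 0 in exosomes. By the test described below, 6 of the 6 beta-cell markers were lower in exosomes with TMM, beside 29.5% of all tested miRNAs. With library size alone 0 of them were lower, beside 6.85%, and 4 were lower at an unadjusted p under 0.05. Of the 11 other markers tested, 10 were higher with either scaling. The share of all tested miRNAs higher was 23.7% with TMM and 31.3% with library size alone. Markers near 0 counts in the cells, such as miR-451a, passed the filter on low counts through the exosomes alone. They could be tested only when high there, so nothing is read from the number higher. The part of either list in the results below was not tested. The quality of the exosome libraries was checked on a Bioanalyzer and that of the cell libraries on a TapeStation, and any such difference in handling cannot be told apart from the group. For the RNA, the labels name the miRNeasy Serum/Plasma Kit for both groups, whereas the study's methods for its PCR give the mirVana kit for the cells, so a difference in extraction cannot be told apart from the group either.

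Together the 6 strands took 7838 and 7573 counts in MIN6 cells, which is 0.267% and 0.295% of the mature counts. They took 143 and 46 counts in the exosomes, which is 0.301% and 0.146%. All 6 passed the filter on low counts, which the cell libraries alone satisfy. In the cells the order of the mean levels in RPM was miR-151-3p (832), miR-28a-3p (632), miR-28a-5p (482), miR-151-5p (334), miR-708-3p (316) and miR-708-5p (219). The ranges of the 2 cell libraries separated every neighbouring pair in that order except miR-151-5p (346 and 323) and miR-708-3p (272 and 360). In the exosomes the order was miR-151-3p (1368), miR-151-5p (380.3), miR-28a-5p (163), miR-708-5p (143), miR-28a-3p (132) and miR-708-3p (52.7). Only miR-151-3p stood apart there, with both of its values above those of the other 5 strands, whose neighbouring ranges overlapped. Among all listed miRNAs, miR-151-3p ranked 60 in cells and 65 in exosomes by mean RPM, whereas miR-28a-3p ranked 74 and 222 and miR-708-3p ranked 113 and 329.

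**Figure D1:**
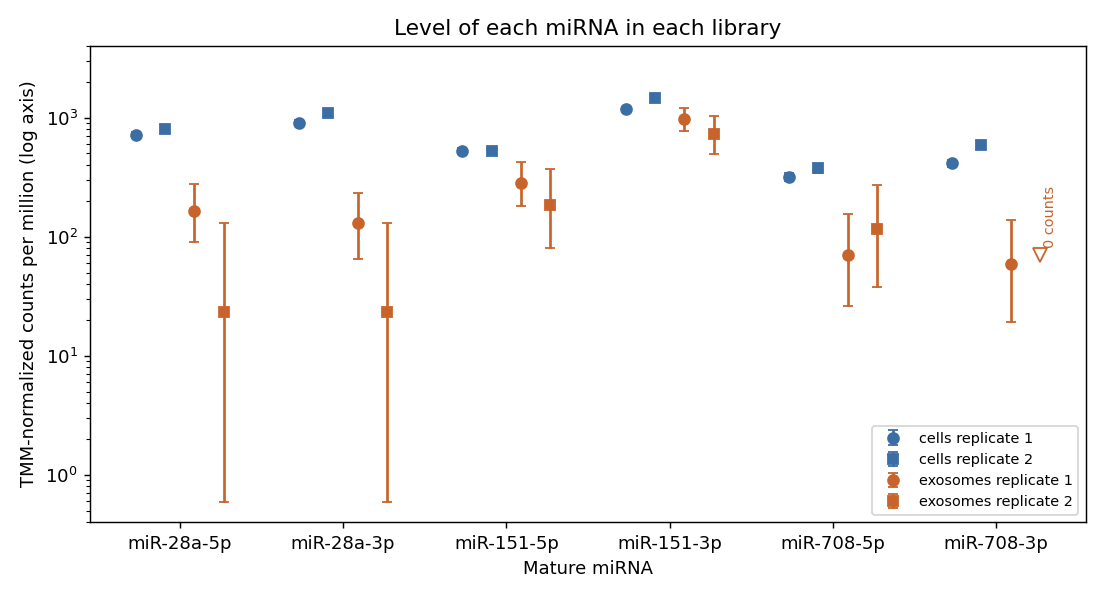
TMM-normalized CPM (log axis) of the 6 mature miRNAs in each of the 4 libraries, with bars for the 95% counting interval. Exosome values lay below both cell values for every strand on this scale, with the smallest gap for miR-151-3p, whose order turned around in RPM, and the open triangle for miR-708-3p marks the 3-count floor of a library with 0 counts.

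The study compared exosomes with the cells that released them. Relative to TMM scaling, the strands of miR-28a and miR-708 were lower in exosomes, and those of miR-151 did not pass the test. Each miRNA was tested by the quasi-likelihood test of edgeR over all 438 miRNAs that passed the filter, with Benjamini-Hochberg adjustment and a threshold of 0.05, and 4 of the 6 strands were lower and 0 were higher. At an unadjusted p under 0.05 the counts were 5 lower and 0 higher, beside 35.8% of all tested miRNAs lower and 26.9% higher. DESeq2 gave 5 lower and 0 higher, adjusted, beside 32.2% and 26.7%, and the adjusted exactTest of edgeR gave 5 and 0 beside 38.6% and 27.9%. The exactTest at the thresholds the study names, 2 for the fold change and 0.05 for the unadjusted p, again gave 5 lower and 0 higher, beside 39.5% of all tested miRNAs lower and 27.6% higher. Of all tested miRNAs, 129 (29.5%) were lower and 104 (23.7%) were higher by the quasi-likelihood test, which is 53.2% in either direction, and the median log2 fold change was -0.75 over all tested miRNAs and -2.40 over the 6 strands. When the libraries were scaled to their sums alone, 0 of the 6 strands passed in either direction (1 lower and 0 higher at an unadjusted p under 0.05) beside 30 miRNAs lower (6.85%) and 137 higher (31.3%), and the median of all tested miRNAs became 0.61. Among calls in either direction, 44.6% were higher with TMM and 82.0% with the library sums.

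miR-28a-5p was counted 1381 and 1262 times in the cells against 14 times and 1 time in the exosomes. In normalized CPM these were 715 and 804 in the cells against 165 and 23.3 in the exosomes. Both exosome values were far below both cell values, and the exosome libraries differed from each other more than the cell libraries did. The means were 759.5 ± 63.1 in cells and 94.2 ± 100.3 in exosomes (SD, n = 2 each), and the log2 fold change was -2.85 (SE 0.78, 95% interval -4.97 to -0.74, adjusted p = 0.0404 by the quasi-likelihood test of edgeR), or 7.22-fold lower. Without cells replicate 2 the adjusted p of the same test was 0.0571. At the level of the cells, the TMM scale would have given 64.4 and 32.6 counts in the exosome libraries.

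miR-28a-3p, the strand opposite, was counted 1756 and 1702 times in the cells against 11 times and 1 time in the exosomes. Its normalized CPM was 909 and 1084 in the cells against 130 and 23.3 in the exosomes, again with no overlap. The means were 997 ± 124 and 76.5 ± 75.2 (SD, n = 2 each), with a log2 fold change of -3.54 (SE 0.72, 95% interval -5.51 to -1.57, adjusted p = 0.0218 by the same edgeR test), or 11.6-fold lower. Leaving out exosomes replicate 1, which leaves a library with 1 count, moved the log2 fold changes of the 5p and 3p strands to -4.65 and -5.04, and leaving out exosomes replicate 2 moved them to -2.10 and -2.84. Without cells replicate 1 they were -3.75 and -4.46, and without cells replicate 2 the 5p strand was at -3.46. Both strands were also lower in RPM without overlap of the values. The 5p strand was at 295 and 31.8 RPM in exosomes against 471 and 492 in cells. The 3p strand was at 232 and 31.8 RPM in exosomes against 599 and 664 in cells. The counting interval of the 5p strand in exosomes replicate 1, 176 to 495 RPM, covered both of its cell values.

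miR-708-5p, which shares its seed with miR-28a-5p, was counted 613 and 588 times in the cells against 6 and 5 times in the exosomes. Its normalized CPM was 317 and 375 in the cells against 70.7 and 116 in the exosomes, so that both exosome values were below both cell values. The means were 346 ± 40.5 and 93.6 ± 32.3 (SD, n = 2 each), and the log2 fold change was -1.95 (SE 0.45, 95% interval -3.17 to -0.72, adjusted p = 0.0281 by the same edgeR test), or 3.86-fold lower. The log2 fold change was -2.67 without cells replicate 1 (adjusted p = 0.158) and -1.20 without exosomes replicate 1 (adjusted p = 0.0677 by the same edgeR test), and without cells replicate 2 the strand did not pass the filter. With upper quartile scaling it was -1.23 (adjusted p = 0.107), and with library size alone -0.63 (adjusted p = 0.315 by the same edgeR test). In RPM it was 209 and 229 in cells and 126 and 159 in exosomes. The counting intervals of the exosome values, 58.0 to 276 and 68.0 to 373 RPM, covered both cell values.

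miR-708-3p was counted 797 and 922 times in the cells against 5 and 0 times in the exosomes. Its normalized CPM was 413 and 587 in the cells. In the exosomes it was 59.0 and 0, where the floor of the library with 0 counts was 69.9. The means were 500.03 ± 124 and 29.5 ± 41.7 (SD, n = 2 each), and the log2 fold change was -3.77 (SE 0.91, 95% interval -6.26 to -1.29, adjusted p = 0.0314 by the same edgeR test), or 13.7-fold lower. The TMM scale would have given 42.4 and 21.5 counts in the exosome libraries at the level of the cells. Without exosomes replicate 1 the strand was left with 0 exosome counts, and the log2 fold change against the floor was -2.46, a bound. It was -2.97 without exosomes replicate 2 and -4.82 without cells replicate 1.

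miR-151-5p was counted 1013 and 827 times in the cells against 24 and 8 times in the exosomes. Its normalized CPM was 524 and 527 in the cells, the closest pair of the family, and 283 and 186 in the exosomes. The exosome values were lower on this scale, yet in RPM the groups overlapped, at 346 and 323 in cells and 506 and 255 in exosomes. The means were 526 ± 1.80 and 235 ± 68.4 normalized CPM (SD, n = 2 each), with a log2 fold change of -1.14 (SE 0.40, 95% interval -2.22 to -0.05, adjusted p = 0.0710 by the same edgeR test), which reversed to 0.22 (adjusted p = 0.771) with library size alone. The log2 fold change of miR-151-5p was -1.13 without exosomes replicate 1 and -0.79 without exosomes replicate 2. Each of these fits has 1 exosome library and so no spread between exosome libraries.

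miR-151-3p, the most abundant strand of the family in every library, was counted 2278 and 2272 times in the cells against 83 and 31 times in the exosomes. Its normalized CPM was 1179 and 1448 in the cells against 979 and 722 in the exosomes, whereas its RPM was 777 and 886 in the cells against 1749 and 987 in the exosomes. Thus both exosome values were below the cells on the first scale and above them on the second. The means were 1313 ± 189.8 and 850.2 ± 181.5 normalized CPM (SD, n = 2 each), with a log2 fold change of -0.62 (SE 0.38, 95% interval -1.65 to 0.41, adjusted p = 0.219 by the same edgeR test), which became 0.73 (adjusted p = 0.2995) with library size alone and 0.09 (adjusted p = 0.876) with upper quartile scaling. The interval on the TMM scale runs from 3.13-fold lower to 1.33-fold higher, so an unchanged level and a moderate fall were both within it.

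**Figure D2:**
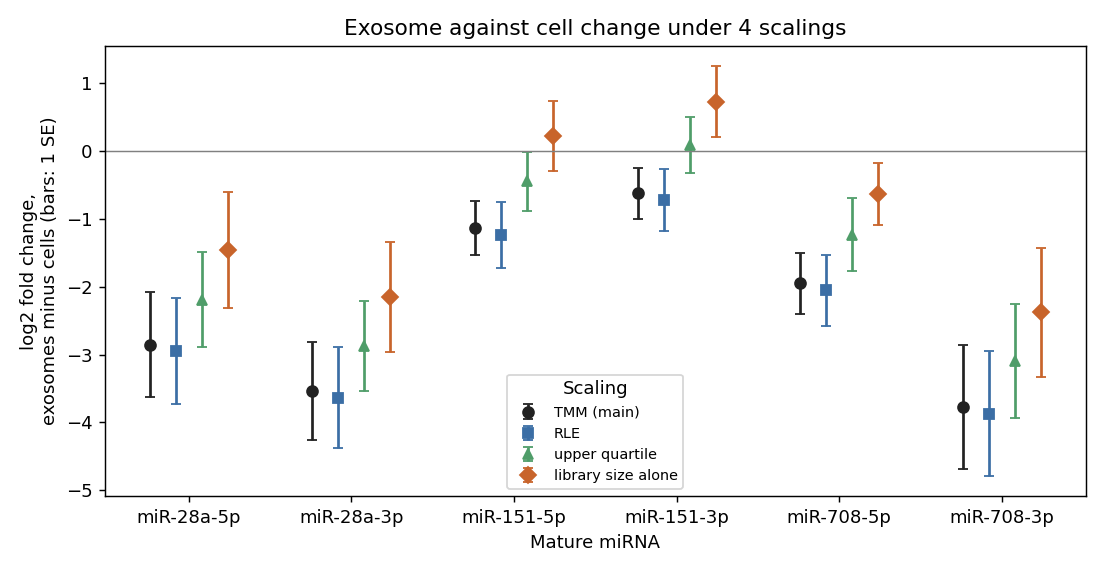
Log2 fold change of each strand, exosomes minus cells, with bars of 1 SE, under TMM (main), RLE, upper quartile scaling and library size alone. The 4 strands of miR-28a and miR-708 stayed below 0 under each scaling, while miR-151-5p crossed 0 with library size alone and miR-151-3p with library size alone and upper quartile scaling.

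The number of strands whose exosome values lay below both cell values was 6 of 6 in normalized CPM, beside 227 of all 438 tested miRNAs (51.8%). In RPM it was 4 of 6, beside 148 of 438 (33.8%), and the 4 were the strands of miR-28a and miR-708. These orders take no account of counting error. In RPM the counting intervals of miR-708-5p in both exosome libraries, and of miR-28a-5p in exosomes replicate 1, covered both cell values. For miR-28a-5p in exosomes replicate 2, and for miR-28a-3p and miR-708-3p in both exosome libraries, the intervals lay below both cell values. Above both cell values in RPM lay 1 of the 6, miR-151-3p, beside 181 of 438 (41.3%). By their place among the 438 log2 fold changes, miR-708-3p and miR-28a-3p were the lowest, with 16.4% and 19.2% of the tested miRNAs below them, followed by miR-28a-5p (25.3%), miR-708-5p (34.0%), miR-151-5p (45.4%) and miR-151-3p (51.6%).

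Because ratios within a library do not depend on the scaling, the division of the family's counts among the 3 hairpins was computed as well, a measure chosen after the counts were seen and given without a test. miR-151 took 42.0% and 40.9% of the family's counts in the cells. In the exosomes it took 74.8% (107 of 143 counts, 95% Wilson interval 67.1 to 81.2) and 84.8% (39 of 46, 71.8 to 92.4). miR-28a took 40.02% and 39.1% in the cells, and 17.5% (12.1 to 24.5) and 4.35% (1.20 to 14.5) in the exosomes. miR-708 took 17.99% and 19.9% in the cells, and 7.69% (4.35 to 13.2) and 10.9% (4.73 to 23.0) in the exosomes. Thus the family was divided about evenly between miR-151 and miR-28a in the cells and was mostly miR-151 in both exosome libraries. The means for miR-151 were 41.5% ± 0.754 and 79.8% ± 7.04 (SD, n = 2 each).

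**Figure D3:**
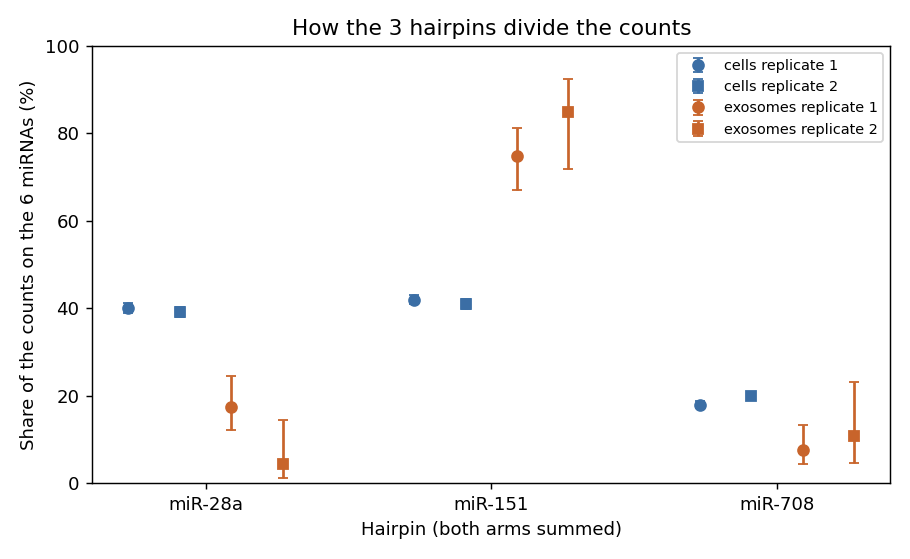
Percent of the counts on the 6 strands that fell on each hairpin, both arms summed, in each library, with 95% Wilson intervals. miR-151 stood at 40.9% and 42.0% in cells and at 74.8% and 84.8% in exosomes, and miR-28a at 39.1% and 40.02% in cells and at 17.5% and 4.35% in exosomes.

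The ratio of miR-151 to miR-28a counts was 1.05 in both cell libraries, against 4.28 and 19.5 in the exosomes, the last resting on 2 counts of miR-28a. The ratio of miR-151 to miR-708 was 2.33 and 2.05 in the cells against 9.73 and 7.8 in the exosomes. By contrast, the ratio of miR-708 to miR-28a was 0.449 and 0.509 in the cells against 0.44 and 2.5 in the exosomes, so the exosome libraries disagreed on its order. With the arms summed to 1 feature per hairpin, a fit also added after the counts were seen, the log2 fold change was -3.44 for miR-28a (SE 0.80, adjusted p = 0.0104 by the edgeR test), -2.95 for miR-708 (SE 0.58, adjusted p = 0.00566) and -0.93 for miR-151 (SE 0.50, adjusted p = 0.140). With library size alone these became -1.86 (adjusted p = 0.167), -1.43 (adjusted p = 0.0710) and 0.59 (adjusted p = 0.367 by the edgeR test), so that no hairpin passed and miR-151 reversed. In that fit 60.1% of the 351 features tested were called in either direction.

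Which arm predominated was described by the 5p share of each hairpin's mature counts. In miR-151 the 3p arm led in every library, with a 5p share of 30.8% and 26.7% in the cells against 22.4% (95% Wilson interval 15.6 to 31.2) and 20.5% (10.8 to 35.5) in the exosomes. In miR-28a the arms were closer, with a 5p share of 44.0% and 42.6% in the cells against 56% (37.1 to 73.3) and 50% (9.45 to 90.5, from 2 counts) in the exosomes. In miR-708 the 5p share was 43.5% and 38.9% in the cells against 54.5% (28.0 to 78.7) and 100% (56.6 to 100, from 5 counts) in the exosomes. The exosome share was above both cell shares for miR-28a and miR-708 and below both for miR-151, and the exact permutation test of 2 against 2 libraries gave, for each, the smallest two-sided p that such a design allows, which is above 0.05.

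**Figure D4:**
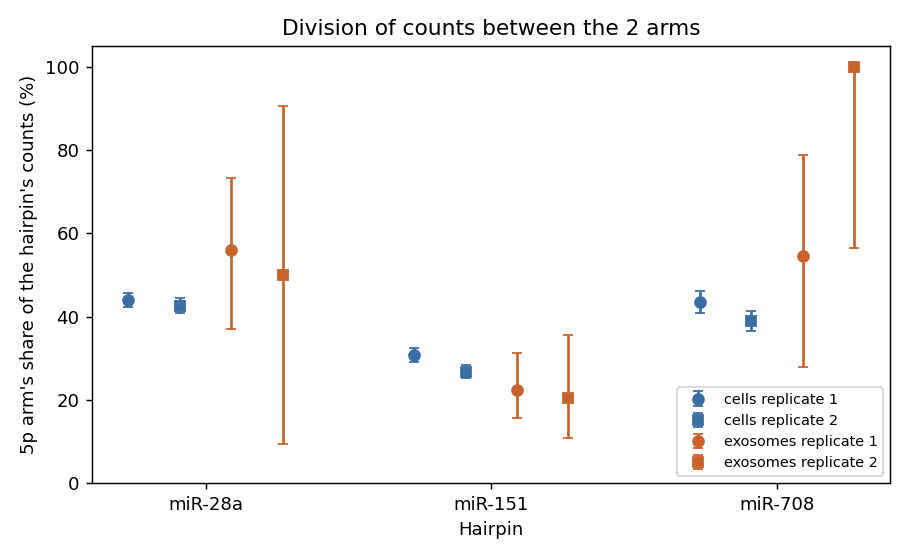
Percent of each hairpin's mature counts on the 5p arm in each library, with 95% Wilson intervals. The exosome intervals of miR-28a and miR-151 reach the cell values, and the miR-708 value of 100% rests on 5 counts.

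The change between exosomes and cells was also compared between the arms of a hairpin by edgeR (diffSpliceDGE) over the 99 hairpins with both arms tested, of which 28.3% passed an adjusted threshold of 0.05. The log2 fold change of the 5p arm minus that of the 3p arm was 0.69 for miR-28a (adjusted p = 0.666), -0.52 for miR-151 (adjusted p = 0.579) and 1.83 for miR-708 (adjusted p = 0.269). A difference between the arms was thus not detectable at this depth for any of the 3. Without exosomes replicate 1 the miR-708 comparison was left with 1 exosome library, at 5 counts on the 5p arm and 0 on the 3p arm. The difference against the floor was then 1.26, a bound.

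Few reads of these hairpins fell outside the annotated arms. In mir-28a the share on neither arm was 0% in all 4 libraries, where 3 counts would be 0.0956% and 0.101% of the 3137 and 2964 counts on its arms in the cells. In mir-151 it was 0% and 0.0645% in the cells against 0.926% (1 count) and 0% in the exosomes, and in mir-708 it was 1.67% and 1.18% in the cells. With 11 and 5 counts on mir-708 in the exosomes and 25 and 2 on the arms of mir-28a, shares of that size were not detectable there, and 3 counts would be at least 12% of either hairpin.

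Of the relatives by name, miR-28b had 4 counts in 1 cell library and 0 in the other 3. miR-28c had 1385 and 1261 counts in the cells against 14 and 1 in the exosomes, almost the same as miR-28a-5p, whose sequence contains all 20 of its bases. In the hairpin counts, miR-28c was counted 1375 and 1256 times on the mir-28a hairpin in the cells, beside 1381 and 1262 for miR-28a-5p, and only 19 and 14 times on its own hairpin, which lies on the minus strand of chromosome 15 from 53614205 to 53614279 in an intron of Samd12. The total of the mir-28a hairpin, 4512 and 4220 in the cells, is the sum of miR-28a-5p, miR-28a-3p and miR-28c. Reads of this strand were therefore counted under both names, and miR-28c cannot be told apart from miR-28a-5p in the mature table.

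The tested miRNAs whose levels lay closest to each strand were found by the root mean square difference of log2 normalized CPM over the 4 libraries, as a description. The nearest to miR-28a-5p after miR-28c were miR-130b-5p (0.562) and miR-361-3p (0.750), and to miR-28a-3p were miR-28c (0.326), miR-130b-5p (0.3329) and miR-384-5p (0.674). For miR-708-5p they were miR-129-1-3p (0.526), miR-93-3p (0.555) and miR-375-5p (0.567), the last a strand of the hairpin known for its abundance in beta cells. For miR-708-3p they were miR-350-3p (0.252), miR-27b-3p (0.314) and miR-30b-5p (0.368), each at 0 counts in the same exosome library. miR-186-5p (0.255), let-7k (0.273) and miR-1306-5p (0.421) were nearest to miR-151-5p, and miR-23a-3p (0.561), miR-210-3p (0.564) and miR-574-3p (0.652) to miR-151-3p. In counts, miR-186-5p had 1072 and 948 in cells and 23 and 11 in exosomes, close to the 1013, 827, 24 and 8 of miR-151-5p.

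Other miRNAs known to derive from LINE2 repeats were read from a list of 12, of which 10 were in the table and 6 were tested. With TMM, 5 of the 6 were lower and 0 were higher, beside 29.5% and 23.7% of all tested miRNAs. At an unadjusted p under 0.05, 6 were lower and 0 higher, beside 35.8% and 26.9%. DESeq2 gave 4 lower and 0 higher, beside 32.2% and 26.7%. The adjusted exactTest gave 6 and 0, beside 38.6% and 27.9%. With library size alone 1 was lower and 0 were higher, beside 6.85% and 31.3%. Nothing is read from these counts. The tested strands include both strands of miR-325 and also miR-374c-3p (44 and 35 counts in cells). These were at 0 in both exosome libraries and passed the filter through the cells alone. Also among the tested strands are miR-374b-5p and miR-374c-5p, whose counts cannot be told apart. miR-374b-5p, the most abundant of them in cells, had 10112 and 9581 counts in cells and 42 and 3 in exosomes (log2 fold change -4.24). miR-374c-5p, whose sequence lies within that of miR-374b-5p, had 10008 and 9489 counts in cells and 41 and 3 in exosomes. miR-325-5p had 345 and 324 counts in cells and 0 in both exosome libraries, which is at least 3.66-fold lower in normalized CPM when a count of 3 in each exosome library is taken as the floor. miR-325-3p had 49 and 42 counts in cells and 0 in both exosome libraries, and the floor there is above its cell level, so no fold is given. The median log2 fold change of the 6 was -5.81 as fitted and -2.17 with the strands at 0 set to their bound. It rests on these same strands, so nothing is read from it either.

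As miR-708 is known as a miRNA of ER stress, 19 other miRNAs known from that response were read beside it, of which 8 were tested. With TMM, 1 was higher (23.7% of all tested) and 2 were lower (29.5%), with a median log2 fold change of -1.11, beside -0.75 for all tested. With library size alone 2 were higher (31.3% of all tested) and 0 were lower (6.85%, and 0 at an unadjusted p under 0.05). The median there was 0.27, beside 0.61 for all tested miRNAs. miR-30c-2-3p, which is induced through XBP1, had 552 and 450 counts in cells and 7 and 2 in exosomes (log2 fold change -2.07). miR-25-3p, the most abundant of them in cells, had 138198 and 136649 counts in cells and 1162 and 188 in exosomes (log2 fold change -3.13). miR-17-5p went the other way, with 1 and 0 counts in cells and 36 and 9 in exosomes, at least 183-fold higher in normalized CPM with a count of 3 in each cell library as the floor. miR-17-5p passed the filter on low counts through the exosomes alone. It could be tested only when high there, so nothing is read from the number higher.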

How the data were processed

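Small RNA of 2 MIN6 cell and 2 MIN6-derived exosome libraries was analysed. The authors trimmed adapters, discarded rRNA reads and aligned the rest in turn against the genome, against miRBase v21 and against RNAcentral v10.0. They deposited whole counts per mature miRNA and per hairpin, without normalization, with RPM values, which equal each count over its library's sum. The submitters' processing notes name cutadapt, Bowtie, Bowtie2, STAR, RSEM, edgeR and the build mm10 without their roles.

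From the deposited counts, 438 of the 1101 mature miRNAs with a count passed filterByExpr (minimum count 10). They were fitted with the quasi-likelihood test of edgeR 4.0.16 in R 4.3.3 with TMM normalization, without a replicate block. A standard error was obtained by dividing the absolute log2 fold change by the root of F, and the common dispersion was 0.164. RPM was recomputed from the counts. Alternatives were RLE, library size alone, upper quartile, DESeq2 1.42.0, exactTest (which the study names, with thresholds of 2 for the fold change and 0.05 for the unadjusted p), no filter, a minimum of 10 counts in all libraries, a replicate block, removal of the 5 most abundant miRNAs per group, and each library left out. Summed arms, the division among hairpins and the exclusion of nested sequences were added after the counts were seen. The fits were tested on simulated data. The libraries of a group differed beyond sampling noise (10.6 for cells and 22.6 for exosomes as chi-square over its degrees of freedom), and each was counted as a replicate.

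The text names the 6 members, miR-28b, miR-28c and the 3 tested miRNAs nearest to each member. From the LINE2 and ER stress lists it names the most abundant member in cells and up to 3 called members by size of change. miR-374c-3p was also named, since it was tested with 0 counts in both exosome libraries. From the marker lists, miR-375-3p, miR-451a, miR-1a-3p, miR-133a-3p and miR-206-3p were named after their values were seen. Members and lists were chosen with earlier results of these data known, and list membership comes from general knowledge.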

Additional observations from a re-analysis of the deposited data

How the results depend on the processing

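With library size alone the log2 fold changes were -1.46 for miR-28a-5p (adjusted p = 0.232), -2.15 for miR-28a-3p (0.0959), -0.63 for miR-708-5p (0.315) and -2.38 for miR-708-3p (0.107), miR-151-5p and miR-151-3p reversed to 0.22 and 0.73, the summed arms of miR-151 reversed to 0.59, those of miR-28a and miR-708 no longer passed (-1.86 and -1.43), and 0 strands were lower. With upper quartile scaling miR-151-3p reversed to 0.087 and miR-708-5p was -1.23 (adjusted p = 0.107), and 57.6% of the calls were higher. miR-151-5p passed with DESeq2 (-1.22, adjusted p = 0.0458), with the adjusted exactTest (-1.12, 0.0251), without the 5 most abundant miRNAs of each group (-1.29, 0.0496) and with no filter (-2.43, 0.0129), where miR-151-3p also passed (-1.91, 0.0290). With at least 10 counts in every library miR-151-3p alone was tested and 0 strands were lower, since the other 5 were removed. The exactTest at the study's threshold gave 5 strands lower and 0 higher.

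With each library left out in turn the log2 fold changes ran from -4.65 to -2.10 for miR-28a-5p and -5.04 to -2.84 for miR-28a-3p. They ran from -1.84 to -0.79 for miR-151-5p and -1.44 to -0.32 for miR-151-3p. For miR-708-5p they ran from -2.67 to -1.20, and for miR-708-3p from -4.82 to -2.46 (a bound). The arm difference of miR-708 ran from 0.79 to 2.15. A group left with 1 library is assumed to vary like the other. Without cells replicate 2, miR-708-5p was not tested. The cause of these differences was not tested.

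The labels give both groups the numbers 1 and 2 but do not tie them, and deviations of same-numbered libraries correlated at 0.145. With the number as a replicate block miR-708-5p was -1.93 (adjusted p = 0.0767) and 3 strands were lower, beside 109 of all 438 tested miRNAs (24.9%), and 51.8% of all calls were higher. Among all tested miRNAs, 202 of 1101 were lower with no filter, and 37 were higher and 40 lower of 100 with at least 10 counts in every library. Depth limits the exosome values, where 5 of the 6 strands had fewer than 10 counts in a library.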
